A study of Homo sapiens with 4 samples.

Results

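The human gene annotation holds many transcribed loci that carry no gene symbol and are listed as LOC followed by their gene number. In Panc1, an established human pancreatic ductal carcinoma cell line, 614 of 12813 such loci were expressed, taken as rows with at least 10 raw read counts in each of 4 libraries, among 54628 rows in all. Poly(A) RNA had been sequenced from 2 libraries labelled HMGB2 siRNA, a small interfering RNA against the chromatin protein HMGB2, and 2 libraries labelled scramble siRNA as the control. All 4 came from the same line with no other genetic change given in the labels, and the labels number the libraries without naming a culture for each. The p-values therefore reflect variation among these libraries only, which could be technical. The choice of loci used the level in every library and not the difference between the groups. A locus silent in 1 group could not enter.

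HMGB2 went against the labels, and every direction below has to be read with its counts. Under the HMGB2 siRNA label its exons held 4021 and 2746 counts, against 346 and 319 under the scramble label, a log2 fold change of 3.07 ± 0.08 (SE, edgeR adjusted p = 1.54e-33). "Higher" therefore means higher in the libraries labelled HMGB2 siRNA, where HMGB2 was high, and "lower" means lower in those libraries and higher in the libraries labelled scramble, where HMGB2 was low.

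Loci without a symbol are a mixed class. Most are long noncoding RNAs, transcripts with no long reading frame that are often spliced and polyadenylated, and others are pseudogenes, which are copies of genes that have mostly lost their coding function, or predicted protein genes awaiting a name. Many long noncoding RNAs start beside a protein-coding gene and run away from it, so that a single promoter region serves both strands, and others run across a gene on its opposite strand. Such transcripts are usually present at low levels, and few have a known function.

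Head-to-head arrangements at 6 loci show the sequence between opposing starts. They are the 3 lower and the 3 higher loci with the smallest p among 9 called loci for which the RefSeq window (GRCh38.p14) began at the start listed in the deposited tables and the first base of a named gene on the other strand lay upstream inside that window. Each is written 5′ to 3′ in the direction of the locus. Capitals run from the first base of the opposite gene to the first base of the locus, and lower case marks up to 25 bases outside either start. The lower loci were these.
LOC102606465 (chr1:101025781-101025871, plus strand, opposite DPH5): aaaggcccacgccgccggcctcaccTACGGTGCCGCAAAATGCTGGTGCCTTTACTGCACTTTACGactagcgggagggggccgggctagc
LOC100506302 (chr7:155644381-155644519, minus strand, opposite RBM33): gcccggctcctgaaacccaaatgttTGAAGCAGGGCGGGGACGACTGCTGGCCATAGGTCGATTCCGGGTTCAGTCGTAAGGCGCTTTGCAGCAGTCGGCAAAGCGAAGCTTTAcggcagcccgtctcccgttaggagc
LOC100132249 (chr9:62838321-62838470, minus strand, opposite PTGER4P2-CDK2AP2P2): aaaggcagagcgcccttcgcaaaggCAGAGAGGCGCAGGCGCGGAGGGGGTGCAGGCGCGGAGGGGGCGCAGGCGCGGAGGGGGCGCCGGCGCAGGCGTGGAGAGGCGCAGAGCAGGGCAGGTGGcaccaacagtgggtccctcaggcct
The higher loci were these.
LOC646762 (chr7:29685113-29685179, minus strand, opposite DPY19L2P3): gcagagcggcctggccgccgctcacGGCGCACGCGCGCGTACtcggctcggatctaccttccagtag
LOC100421372 (chr10:14838056-14838331, plus strand, opposite CDNF): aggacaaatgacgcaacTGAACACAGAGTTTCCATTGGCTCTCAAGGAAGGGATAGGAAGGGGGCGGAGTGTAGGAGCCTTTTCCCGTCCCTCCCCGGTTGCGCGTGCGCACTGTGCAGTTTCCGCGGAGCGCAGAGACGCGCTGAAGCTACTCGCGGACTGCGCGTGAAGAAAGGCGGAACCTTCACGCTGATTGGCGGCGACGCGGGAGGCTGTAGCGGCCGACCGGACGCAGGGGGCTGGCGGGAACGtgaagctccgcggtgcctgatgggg
LOC122526782 (chr1:231528531-231528678, minus strand, opposite TSNAX-DISC1): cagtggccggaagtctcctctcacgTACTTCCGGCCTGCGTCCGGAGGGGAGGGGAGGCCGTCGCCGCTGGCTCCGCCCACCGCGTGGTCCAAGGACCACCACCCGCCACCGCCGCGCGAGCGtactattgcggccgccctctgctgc

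The opposing starts were 16 bases apart at LOC646762, the shortest distance shown, and 233 bases apart at LOC100421372, the longest. The word GGGCGG (or CCGCCC on the other strand), a match to the core of the binding site of SP1-type factors, was found in 3 of the 6 printed stretches, those of LOC100506302, LOC100421372 and LOC122526782. CCAAT (or ATTGG) was found in that of LOC100421372, and TATAAA (or TTTATA) in 0 of 6. None of these words contains another. RefSeq windows of 300 bases, from 250 before to 50 after a start, were found for 283 of the 614 loci. For 140 of the 283 the RefSeq start was the one listed in the deposited tables, so other windows may lie at another start. Of the 77 among the 283 with an opposite start upstream and within 1000 bases, 72.7% held GGGCGG, against 44.6% of 27305 windows with 1 per gene, and 1.3% held TATAAA, against 11.95%. CCAAT was present in 35.1% and 35.7%. The 27305 windows were not chosen by expression, as the loci were. The median number of CG steps was 31 in these head-to-head windows, 10 in the 166 windows of loci with no opposite start within 1000 bases, and 14 over all genes. A match describes the letters in a window and is not evidence of binding.

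The 614 loci were short and had few exons. Overlapping exons of all listed transcripts were merged into blocks, and the loci had a median of 3 blocks (quartiles 2 and 4) and 2363 exonic bases (quartiles 1413 and 4097, range 191 to 31110). There was 1 block in 100 loci, 2 in 186, 3 to 5 in 233, 6 to 10 in 74 and more than 10 in 21. The most blocks, 46, belonged to LOC408186 on chromosome 12 (9448287 to 9576270, plus strand), which RefSeq now lists as the transcribed pseudogene OVOS1P. Its counts of 51 and 29 against 30 and 31 gave a log2 fold change of 0.10 ± 0.33 (SE). The greatest exonic length, 31110 bases in 1 block, belonged to the pseudogene LOC100419798 on chromosome 1 (155615570 to 155646679, minus strand), with 120 and 88 against 125 and 78 counts.

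By gene number, 498 of the 614 loci were found in the RefSeq table, 372 as long noncoding RNAs, 96 as pseudogenes of some type and 27 as protein-coding genes. Of these, 94 have a symbol there now. Symbols ending in DT, for divergent transcript, were given to 17 loci, and 16 of these had their start within 1000 bases of an opposite start in the deposited tables. Symbols of the antisense form were given to 39 loci, and 24 of these shared exonic bases with a named gene on the opposite strand. LINC symbols, for long intergenic noncoding RNA, were given to 10.

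Position relative to named genes divided the loci as follows. Exonic bases were shared with at least 1 named gene by 199 loci (32.4%), by 172 on the opposite strand only, by 22 on the same strand only and by 5 on both. Without a shared exonic base, 83 lay over the body of a named gene on the same strand and 80 on the opposite strand. Another 75 lay outside named genes but head to head with one, with starts within 1000 bases, and 177 were apart from all of these. Apart from named genes means only this here, since the distance to other nearby named genes was not measured. Among the 199, the shared part was a median of 9.64% of the exonic bases and at most 75.9%, at LOC101927365 beside TSTD3. Exonic bases were shared with another unnamed locus by 37 of the 614.

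**Figure D1:**
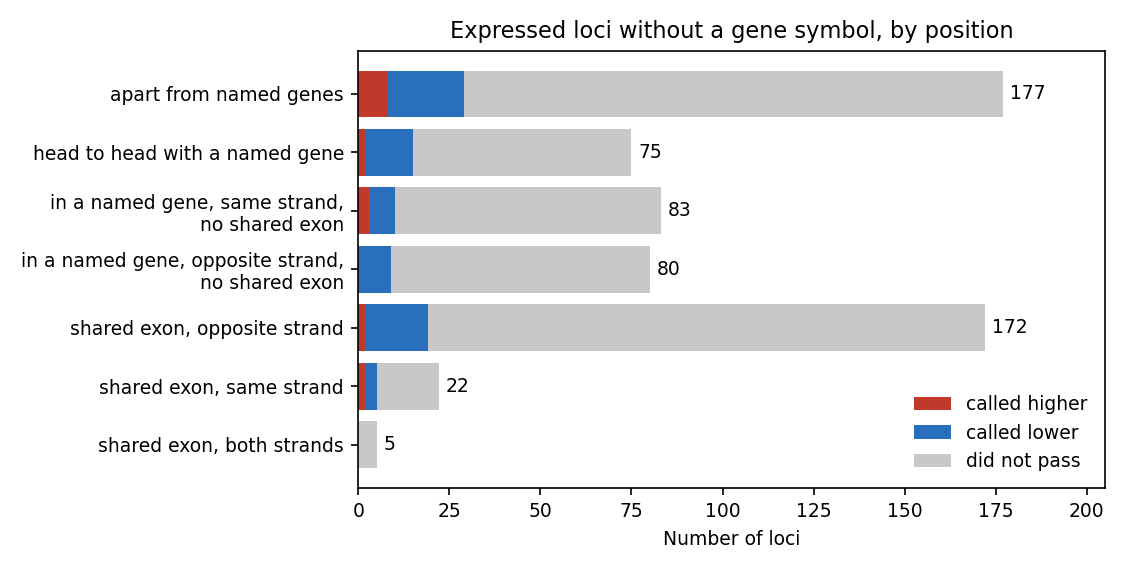
Number of expressed loci without a gene symbol (x axis) in each class of position relative to named genes (y axis), split into loci called higher, called lower and not passing the test in libraries labelled HMGB2 siRNA against libraries labelled scramble. Loci called lower outnumber those called higher in 6 of the 7 classes.

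The counts show how shared sequence was handled. Of all rows in the tables, 321 had every exonic base inside exons of genes on the opposite strand, and all 321 were at 0 in all 4 libraries, including 79 whose overlapping gene had at least 1000 counts over the 4 libraries. The same was found for 83 unnamed loci that lay wholly inside other exons on either strand. On the same strand, 911 of 929 such rows were at 0 and the highest total was 49. With the exception of these few same-strand rows, reads in wholly shared exonic sequence were left uncounted on either strand, and the counts of the 199 overlapping loci would then come mainly from their unshared bases. Reads in those bases could come from either strand, so transcripts of a locus inside a gene and unspliced RNA of that gene cannot be told apart here.

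The libraries held 20340695 to 31852391 counts. A row at 0 could still have had up to 3 counts, or 0.0942 to 0.1475 CPM (counts scaled to a fixed library total), by counting error only. Of the epithelial keratins, KRT8 had 2007 to 2712 CPM, KRT18 907 to 1148 CPM and KRT19 407 to 713 CPM, while the ductal keratin KRT7 had only 2.61 to 4.68 CPM. The mesenchymal gene VIM had 2208 to 2444 CPM, and PRSS1 (acinar cells), INS and GCG (islet cells), ALB (hepatocytes) and DCN (fibroblasts) were at 0 in all 4. PTPRC, PECAM1 and CPA1 had at most 3 counts. The collagen gene COL1A1, the other fibroblast marker, had 56.5 to 77.2 CPM.

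Most loci were present at low levels. The mean over the 4 libraries, scaled by trimmed mean of M values (TMM), had a median of 1.47 CPM and a highest value of 42.4 CPM, and 193 loci were under 1 CPM. Per kilobase of exon the median was 0.720 CPM, against 6.47 CPM for expressed rows that are neither LOC, LINC nor antisense rows. Together the 614 loci took 0.160% and 0.162% of the reads under the HMGB2 siRNA label and 0.175% and 0.191% under the scramble label. The groups did not overlap in this share, which 2 against 2 libraries cannot test below a two-sided exact permutation p of 0.333. In bulk RNA, fewer cells with a transcript and less of it per cell cannot be told apart. Scramble replicate 2 had the highest CPM of the 4 libraries for 246 loci, scramble replicate 1 for 146, and the libraries labelled HMGB2 siRNA for 102 and 120.

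In the comparison of the labelled groups 17 loci were higher, 70 were lower and 527 did not pass (edgeR quasi-likelihood test fitted on 15161 genes, adjusted p under 0.05). The loci were called higher in 2.77% of cases where all tested genes were in 16.7%, and lower in 11.4% where all tested genes were in 14.1%. Median levels differed, at 1.47 CPM for the loci and 21.57 CPM for all tested genes, and shares by level are given below. The loci had a median log2 fold change of -0.165, against -0.006 over all tested genes, and 64.3% of them had a negative value, against 51.0%. Both libraries of a group lay above both of the other for 98 loci in the higher direction (16.0%; 32.0% of all tested genes) and for 225 in the lower direction (36.6%; 31.6% of all tested genes). All 87 called loci had groups that did not overlap. A change of more than 2-fold was estimated for 4 loci called higher and 20 called lower. The matching shares of all tested genes are not given here, so these 2 counts have no background to be read against.

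These counts depended on single libraries. Without HMGB2 siRNA replicate 1, the deepest library, 6 loci were higher and 25 lower, and leaving out HMGB2 siRNA replicate 2 gave 11 higher and 31 lower. Without scramble replicate 2, 20 were higher and 44 lower, and the median moved to -0.089. Lower calls outnumbered higher calls in each of these fits. DESeq2 called 7 higher and 12 lower and gave no adjusted p to 403 of the 614 loci, and a test against a 1.5-fold change called 3 in all.

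Other noncoding classes, chosen by the same minimum of 10 counts, also had more lower than higher calls. Of 138 rows named LINC, 7 were higher and 17 lower with a median log2 fold change of -0.109, and of 340 antisense rows 7 were higher and 47 lower with a median of -0.211. The other 13070 expressed rows had a median of 0.002, with 2450 higher and 1909 lower. The median also moved with level. Among all expressed rows outside the unnamed loci, the median was -0.132 under 1 CPM, -0.103 from 1 to 2 CPM, -0.091 from 2 to 5 CPM, -0.071 from 5 to 10 CPM and 0.018 at 10 CPM or more. For the unnamed loci in the same ranges the medians were -0.112, -0.186, -0.230, -0.198 and -0.119. From 2 to 5 CPM 33 of 149 unnamed loci were lower (22.1%), against 170 of 1286 other rows (13.2%), and from 5 to 10 CPM 16 of 55 (29.1%), against 197 of 1171 (16.8%). In the other ranges the shares called lower were 2.59% against 1.52% under 1 CPM, 6.19% against 6.28% from 1 to 2 CPM and 17.4% against 16.3% at 10 CPM or more. Shares called higher also rose with level. For the unnamed loci against other rows they were 0% against 0.152% under 1 CPM and 1.03% against 3.43% from 1 to 2 CPM. They were 3.36% against 6.53% from 2 to 5 CPM and 9.09% against 12.0% from 5 to 10 CPM. At 10 CPM or more they were 21.7% against 23.4%. These gaps were not tested, and the part of level in the balance of directions was not tested either.

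**Figure D2:**
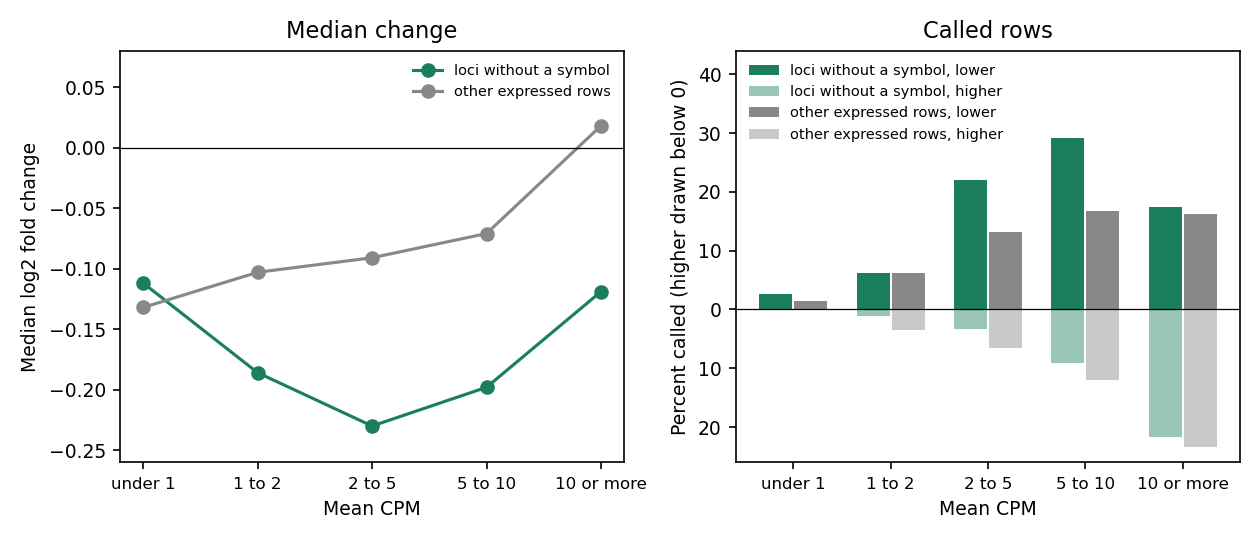
Left, median log2 fold change (labelled HMGB2 siRNA against labelled scramble) in 5 ranges of mean CPM for the unnamed loci and for all other rows with at least 10 counts in each library. Right, percent of rows called lower (upward bars) and higher (downward bars) in the same ranges, where the unnamed loci from 2 to 5 CPM stand at 22.1% lower against 13.2% for the other rows.

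**Figure D3:**
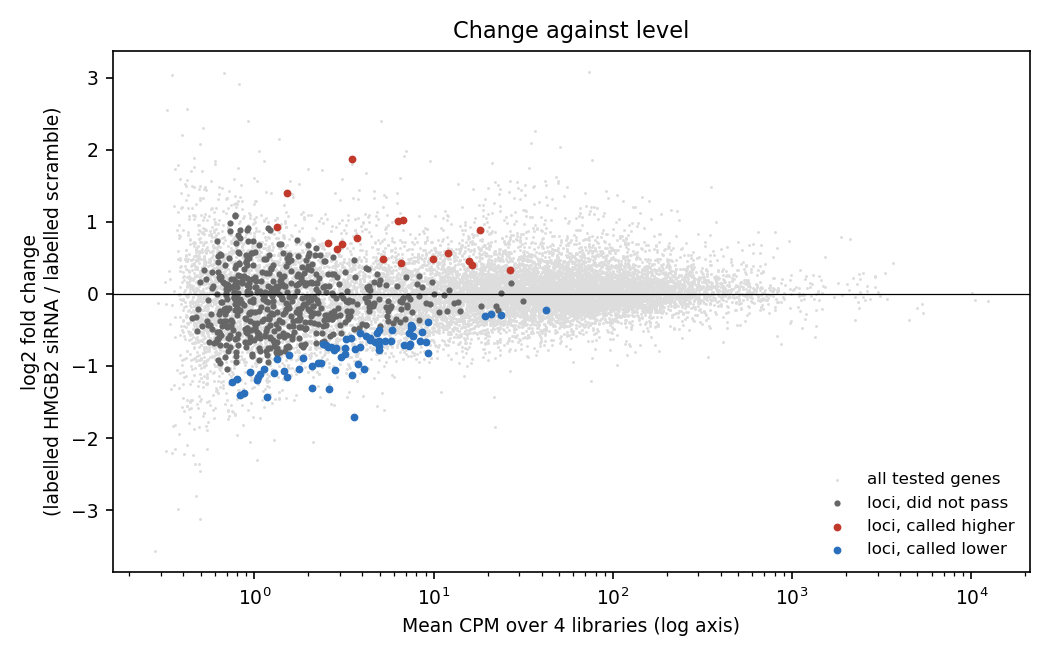
Log2 fold change (y axis) against mean CPM on a log axis (x axis) for all 15161 tested genes (light grey) and the 614 unnamed loci, coloured by call. The unnamed loci lie at the low end of the scale, with a median of 1.47 CPM, and most of their calls are below 0.

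Among loci that were higher where HMGB2 was high (4021 and 2746 against 346 and 319 counts), LOC105372711 changed most. This long noncoding RNA of 2 exon blocks lies apart from named genes on chromosome 20 (62480222 to 62490856, plus strand). Its counts were 141 and 133 under the HMGB2 siRNA label and 30 and 33 under the scramble label, which is 5.48 ± 1.4 against 1.47 ± 0.16 CPM (SD, n = 2 each). The log2 fold change was 1.87 ± 0.25 (SE, adjusted p = 3.19e-08), and the lowest value of the first group was well above the highest of the second. LOC441666, a transcribed pseudogene on chromosome 10 (42331866 to 42368045, minus strand), was the most abundant of the higher loci with a large change. Its 729 and 487 counts against 279 and 264 corresponded to 23.2 and 23.7 CPM against 12.7 CPM in both libraries labelled scramble, and it was 1.85-fold higher (adjusted p = 3.73e-09).

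On chromosome 11 both LOC107984316 (17377439 to 17381661, plus strand) and LOC399975 (129233778 to 129283164, minus strand) were about 2-fold higher. LOC107984316, which is apart from named genes, had 286 and 183 against 100 and 90 counts and was 2.03-fold higher (adjusted p = 1.84e-06). LOC399975, a long noncoding RNA, had 264 and 174 against 103 and 76 counts and was 2.02-fold higher (adjusted p = 5.13e-06). It lies over the body of ARHGAP32, a GTPase-activating protein gene on the same strand, whose own log2 fold change was -0.05 ± 0.07 (SE). All 4 of these loci kept their call under the 12 alternative settings tried for single loci.

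The other large higher values lost their call in some alternatives. LOC102724200, listed as protein-coding on chromosome 21 (5156151 to 5231500, minus strand), had 80 and 38 against 18 and 18 counts and was 2.65-fold higher (adjusted p = 0.00106), but without HMGB2 siRNA replicate 1 it was not called (adjusted p = 0.122). LOC107985403, opposite an exon of TM9SF4 on chromosome 20 (32157391 to 32159694, minus strand), had 49 and 40 against 20 and 19 counts and a log2 fold change of 0.92 ± 0.36 (SE, adjusted p = 0.0425), a call lost on leaving out any 1 of the 4 libraries (adjusted p from 0.0983 to 0.299), and with upper-quartile scaling, total-count scaling or limma-voom (0.0528 to 0.0563). LOC102724488, now named SYT15B and listed at 2 places, had 121 and 51 against 42 and 43 counts. Without HMGB2 siRNA replicate 1 its log2 fold change went from 0.70 to 0.33 (adjusted p = 0.654), and it was not called without scramble replicate 1, with DESeq2 or with those 2 scalings either (0.0523 to 0.232).

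In the other direction, LOC112268317 fell most where HMGB2 was high. It is listed as protein-coding on the unplaced sequence KI270744v1 (124346 to 140933, minus strand) and had 56 and 32 against 131 and 106 counts. Its mean was 1.67 ± 0.16 CPM under the HMGB2 siRNA label and 5.52 ± 0.61 CPM under the scramble label (SD, n = 2 each). The log2 fold change of -1.71 ± 0.23 (SE, adjusted p = 4.74e-08) stayed past the threshold in those 12 alternatives. The next in size had few reads. LOC107983990 on chromosome 16 (31791792 to 31794893, plus strand) had 15 and 17 against 40 and 33 counts, a log2 fold change of -1.44 ± 0.40 (SE, adjusted p = 0.00389). LOC107986476 on chromosome 5 had 11 and 12 against 19 and 32 counts, and LOC105378153 on chromosome 6 had 17 and 15 against 29 and 32. Both are long noncoding RNAs apart from named genes, with adjusted p of 0.0156 and 0.0201. None of these last 3 was called without HMGB2 siRNA replicate 1 (adjusted p = 0.18, 0.308 and 0.283), and LOC107986476 (adjusted p = 0.298) and LOC105378153 (0.117) were also lost without scramble replicate 2. LOC105378153 was lost without HMGB2 siRNA replicate 2 as well (0.0761).

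Other lower loci shared exonic sequence. LOC105375259 on chromosome 7 (44795586 to 44796353, minus strand) shared 44.1% of its 669 exonic bases with PPIA, the gene of cyclophilin A, on the opposite strand. It had 14 and 11 against 28 and 26 counts (log2 fold change -1.37 ± 0.43, SE, adjusted p = 0.0119), while PPIA had 45871 to 73534 counts and a log2 fold change of 0.03 ± 0.07. The pseudogene LOC100288367 on chromosome 15 shared 265 bases with RN7SL417P, which was at 0 in all 4 libraries, and had 13 and 10 against 26 and 19 counts (adjusted p = 0.0356). The call of LOC105375259 was lost without either HMGB2 siRNA library or without scramble replicate 1 (adjusted p from 0.0559 to 0.201), and that of LOC100288367 on leaving out any 1 of the 4 (adjusted p from 0.0582 to 0.315).

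**Figure D4:**
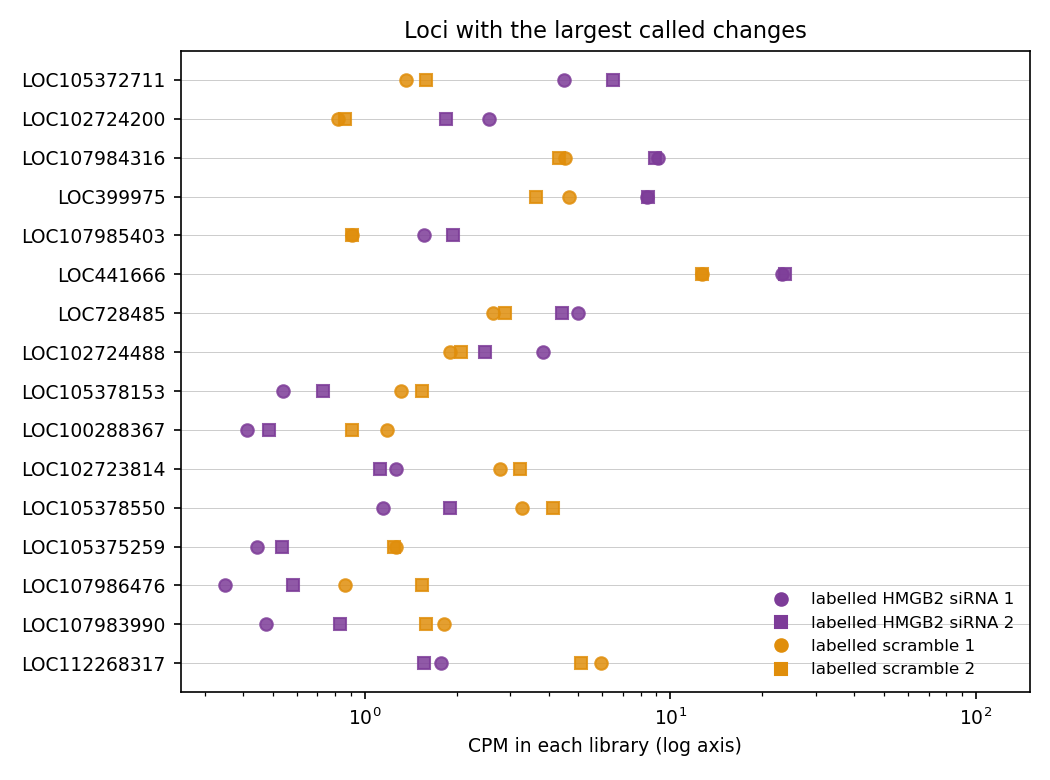
CPM on a log axis (x axis) in each of the 4 libraries for the 8 called loci with the largest change in each direction (y axis). Purple marks libraries labelled HMGB2 siRNA and orange those labelled scramble, circles replicate 1 and squares replicate 2. In all 16 loci the colours do not overlap, as the choice of loci required.

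Most head-to-head loci did not pass the test. Of 75 such loci outside named genes, 2 were higher, 13 were lower and 60 did not pass. The shares were 2.67% higher and 17.3% lower, against 16.7% and 14.1% of all tested genes. Their median level was 1.49 CPM, against 21.57 CPM over all tested genes. Of other expressed rows from 1 to 2 CPM, 3.43% were called higher and 6.28% lower. The part of level was not tested. For the 69 of these 75 loci whose neighbour was also tested, the median log2 fold change was -0.203, against 0.027 for the neighbours. Of the neighbours 17 were higher and 11 lower, where 16.7% and 14.1% of all tested genes were. Across these 69 pairs the 2 values had a Spearman rho of 0.229 and a Pearson r of 0.233. The pairs share libraries, so this is a description only.

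**Figure D5:**
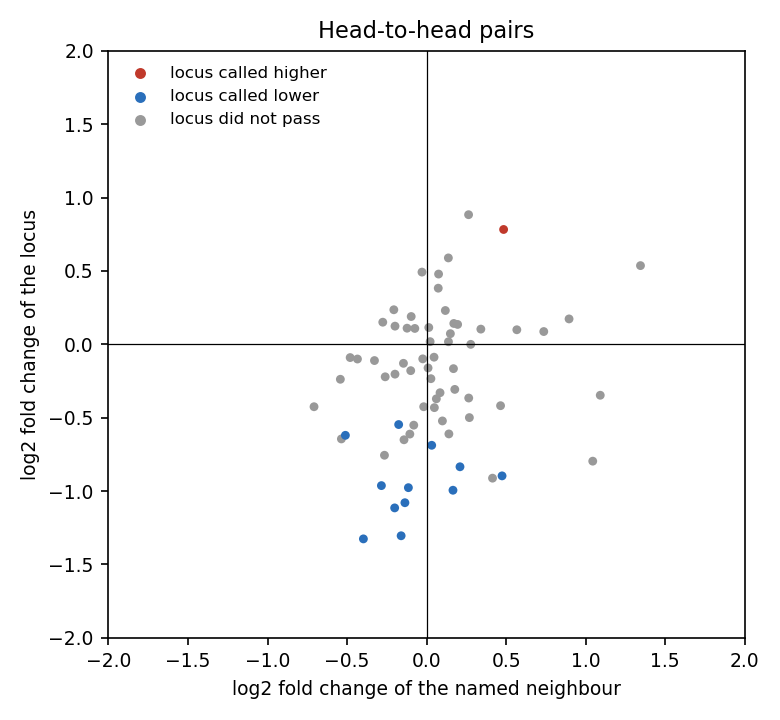
Log2 fold change of each head-to-head locus outside named genes (y axis) against that of its named neighbour on the other strand (x axis). The 69 pairs are coloured by the call of the locus. Points for loci called lower stand on both sides of 0 along the x axis.

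Both members of a pair were called in 6 cases, and 4 of these went the same way. LOC105378550 on chromosome 10 (126903418 to 126905339, minus strand) starts 89 bases from DOCK1, which encodes an activator of the GTPase Rac. The locus had 36 and 39 against 72 and 86 counts, a log2 fold change of -1.33 ± 0.28 (SE, adjusted p = 0.000153), and DOCK1 had 101 and 101 against 127 and 138 CPM, a log2 fold change of -0.40 ± 0.07 (adjusted p = 5.37e-06). LOC107984432 fell by 1.11 beside APLP2, a relative of the amyloid precursor protein gene, at -0.20, and LOC107984455 fell by 0.96 beside the pseudouridine synthase gene PUS1 at -0.28, all on the log2 scale. The call of LOC107984432, with 16 and 18 against 30 and 32 counts, was lost on leaving out any 1 library (adjusted p from 0.0532 to 0.434). That of LOC107984455 was lost with DESeq2 (0.0997) and without HMGB2 siRNA replicate 1 (0.081) or scramble replicate 2 (0.242). LOC728485 on chromosome 19 was higher together with the zinc finger gene ZNF850, with 157 and 91 against 58 and 60 counts and a log2 fold change of 0.78 beside 0.48. Its own call was lost with DESeq2 (adjusted p = 0.0686) and without HMGB2 siRNA replicate 1 (0.101).

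The other two pairs went opposite ways. LOC101930112 had a log2 fold change of -0.83 beside 0.21 for ANKRD11, which encodes a chromatin cofactor. LOC105378419 had -0.90 beside 0.47 for the interferon-induced gene IFIT2, with an adjusted p of 0.0493 for the locus. LOC101930112 was not called with DESeq2, without HMGB2 siRNA replicate 2 or without scramble replicate 2 (adjusted p from 0.0656 to 0.111). LOC105378419 was not called with limma-voom, without either HMGB2 siRNA library or without scramble replicate 2 (0.0508 to 0.29). LOC102723814 on chromosome 20 (63517262 to 63520200, minus strand) starts 541 bases from PPDPF, a gene named for pancreatic progenitor cell differentiation and proliferation. The locus had 40 and 23 against 61 and 67 counts, a log2 fold change of -1.30 ± 0.29 (SE, adjusted p = 0.000396), while PPDPF had -0.16 ± 0.07 and did not pass (adjusted p = 0.0629).

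Of the loci whose sequence is printed above, LOC102606465, now DPH5-DT, had 86 and 48 against 98 and 118 counts. It was 1.97-fold lower (adjusted p = 0.000396), and DPH5, a gene of diphthamide synthesis, had a log2 fold change of -0.11 ± 0.11. LOC100506302, now RBM33-DT, had 158 and 131 against 213 and 176 counts (log2 fold change -0.69 ± 0.16, SE, adjusted p = 0.000659), and RBM33, an RNA-binding protein gene, had 0.03 ± 0.07. LOC100132249 had 56 and 28 against 64 and 70 counts (log2 fold change -0.97 ± 0.27, SE), beside a readthrough pseudogene with at most 4 counts a library. Without HMGB2 siRNA replicate 1 LOC100506302 was not called (adjusted p = 0.0882), and without HMGB2 siRNA replicate 2 neither was LOC100132249 (0.0806), nor with DESeq2 (0.0736). The neighbours of these 3 did not pass the test or had too few counts to enter it.

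LOC646762, now the microRNA host gene MIR550A3HG, had 911 and 623 against 511 and 495 counts and was 1.26-fold higher (adjusted p = 0.00448). LOC100421372, now the protein-coding gene MSANTD7, had 592 and 381 against 276 and 328 counts and was 1.33-fold higher (adjusted p = 0.00481). Opposite it CDNF had at most 4 counts a library, and HSPA14, with which it shares 318 exonic bases on the same strand, had a log2 fold change of 0.24 ± 0.11 (adjusted p = 0.0798). LOC122526782, now TSNAX-DT, had 240 and 153 against 123 and 117 counts (log2 fold change 0.43 ± 0.16, SE, adjusted p = 0.0368). The gene TSNAX itself, named after its values were seen, had -0.46 ± 0.10 (adjusted p = 0.000161). The call of LOC122526782 was lost on leaving out any 1 library, with DESeq2 and with upper-quartile or total-count scaling (adjusted p from 0.0542 to 0.222), that of LOC646762 without HMGB2 siRNA replicate 2 (0.102), and that of LOC100421372 without HMGB2 siRNA replicate 1 or scramble replicate 1 (0.0705 and 0.0812) or with DESeq2 (0.065).

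The other 2 loci with small p and a nearby opposite start were LOC100507507, now FAM131B-AS2, and LOC728975, now CAPN1-AS1. LOC100507507, listed at 2 places, lies over the body of FAM131B on the same strand, on chromosome 7 at 143379155 to 143381025. It had 182 and 159 against 250 and 255 counts, a log2 fold change of -0.82 ± 0.15 (SE, edgeR adjusted p = 1.45e-05). FAM131B had 8 and 10 against 9 and 15 counts, a log2 fold change of -0.67 ± 0.56 (SE, edgeR adjusted p = 0.402). The start of LOC100507507 lies 320 bases from that of ZYX, which encodes the focal adhesion protein zyxin and had -0.11 ± 0.07. LOC728975 on chromosome 11 (65179871 to 65181834, minus strand) shares 155 exonic bases with CAPN1, the calpain gene, which had -0.04 ± 0.06. It had 172 and 113 against 182 and 204 counts and a log2 fold change of -0.72 ± 0.16 (SE, adjusted p = 0.000337). Both calls held in the 12 alternatives.

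Loci opposite a named gene's exons, or over its body, mostly did not pass either, and their shares of lower calls were under the 14.1% of all tested genes. Their levels were lower too. Median levels were 1.34 CPM (exon, opposite strand), 1.393 CPM (body, opposite strand) and 1.471 CPM (body, same strand), against 21.57 CPM over all tested genes. Of other expressed rows from 1 to 2 CPM, 6.28% were called lower, which is under the shares of these classes. The part of level was not tested. Of 172 loci with a shared exon on the opposite strand only, 2 were higher and 17 lower (9.88%), with a median log2 fold change of -0.203. For the 154 opposite-strand partners that were tested alongside, the median was -0.042. Of these partners 37 were higher and 21 lower, where 16.7% and 14.1% of all tested genes were. Across the pairs Spearman's rho was 0.147. Of 80 loci over a gene body on the opposite strand, 9 were lower (11.2%) and the other 71 did not pass, and the 71 pairs in which the host gene was tested had a rho of 0.476. As said above, transcripts of such a locus and unspliced host RNA cannot be told apart here. In these 71 pairs the locus was lower in 7 and higher in 0. The host gene was higher in 20 of the 71 and lower in 10, where 16.7% and 14.1% of all tested genes were. In the 4 of these pairs where both were called, both fell: LOC101927556 with CSNK2A2, a catalytic subunit of casein kinase 2, LOC101929188 with the calcium channel gene ITPR3, LOC102723663 with the histamine receptor gene HRH1, and LOC105375124 with ELFN1. LOC105375124 had a log2 fold change of -1.04 beside -0.48 for ELFN1, and LOC102723663 had -0.58 beside -0.63 for HRH1. LOC105375124, with 84 and 55 against 102 and 133 counts, kept its call in the 12 alternatives. LOC101929188 and LOC102723663 were not called with DESeq2, without HMGB2 siRNA replicate 2 or without scramble replicate 1 (adjusted p from 0.16 to 0.362), nor was LOC101929188 with limma-voom (0.0507). Of the 83 loci over a gene on the same strand 3 were higher and 7 lower (8.43%), and in 58 pairs rho was 0.103. The 22 loci that shared an exon on the same strand only had a median of 0.102, with 2 higher and 3 lower.

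The most abundant unnamed loci moved little. LOC101927556, a long noncoding RNA on chromosome 16 (58129469 to 58163295, plus strand) that starts 88 bases from CFAP20, had 1278 and 767 against 1000 and 958 counts, which is 39.02 ± 2.3 against 45.7 ± 0.39 CPM (SD, n = 2 each). The log2 fold change was -0.22 ± 0.08 (SE, adjusted p = 0.0298), beside 0.30 ± 0.10 for CFAP20. The call of LOC101927556 was lost with DESeq2 (adjusted p = 0.134), without a low-count filter (0.102) and without either HMGB2 siRNA library (0.107 and 0.412). LOC105369370 on chromosome 11 (69366823 to 69372512, plus strand) had 19.6 and 23.4 against 26.2 and 25.9 CPM and a log2 fold change of -0.29 ± 0.10 (SE, adjusted p = 0.0249), which was not called without HMGB2 siRNA replicate 1 (adjusted p = 0.569), with DESeq2 (0.16) or without a low-count filter (0.0593).

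LOC101060400, opposite HOXB-AS4 on chromosome 17, had 30.6 and 30.5 against 33.5 and 32.1 CPM. LOC93622, now the protein-coding gene MRFAP1L2, had 27.2 and 29.7 against 24.4 and 26.7 CPM, and LOC102724250 had 22.9 and 24.9 against 22.2 and 25.1 CPM. LOC171391, now GATD1-DT, had 21.6 and 20.5 against 24.3 and 24.96 CPM. LOC105376794 had 19.98 and 22.1 against 19.7 and 27.5 CPM. None of these 5 passed the test (adjusted p from 0.0824 to 0.941), although LOC171391 did with upper-quartile or total-count scaling and LOC105376794 did without scramble replicate 1 (log2 fold change -0.39, edgeR adjusted p = 0.000919). Among the 8 most abundant loci LOC171391 stood highest per kilobase of exon at 23.02 CPM, followed by LOC101060400 and LOC93622 at 13.7 CPM each, with the other 5 between 2.97 and 7.005 CPM.

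Outside chromosome Y, the share of unnamed loci that were expressed ran from 1.81% on chromosome 4 to 9.97% on chromosome 19, where 34 of 341 were expressed. On chromosome Y it was 0 of 69. Of all 614 loci 2.77% were higher and 11.4% lower, against 16.7% and 14.1% of all tested genes. Chromosome 16 had the lowest median log2 fold change among chromosomes with expressed loci, -0.526 over 31 loci, of which 7 were lower and the others did not pass. It was picked as the extreme of many small groups, and differences between chromosomes were not tested. Chromosome 1 held the most expressed loci, 66, with 1 higher, 9 lower and a median of -0.066. The 25 loci found on no standard chromosome had 1 higher and 2 lower.

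The minimum of 10 counts divided a continuous range. The lowest library had exactly 10 counts in 51 loci and 9 counts in 40 further rows outside. Just inside, LOC102723665 had 29 and 10 against 27 and 23 counts and LOC100420981 had 42 and 10 against 15 and 16. Just outside, LOC105377188 had 17 and 9 against 26 and 35 counts and LOC105376601 had 25 and 29 against 9 and 21. Of the rows left out, 31 had at least 10 counts in both libraries labelled HMGB2 siRNA and under 10 in both labelled scramble, and 23 the reverse. In all, 8070 of the 12813 unnamed rows had no read in any library.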

How the data were processed

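Poly(A) RNA of Panc1 cells was measured in 4 libraries. Each deposited table holds, for 1 library, the authors' raw read counts over the listed exons of every gene. STAR, SAMtools 1.9, featureCounts of Subread 1.6.3, DESeq2 and build hg38 (GRCh38) are named, per the submitters' processing notes. How strand and multimapping reads were handled is not given in the sources used here. Groups follow the treatment labels, which the headers of all 4 count columns contradict.

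Exons were merged per row, sequence and strand. An exon was shared from 1 base on, and a named gene was any row that is not LOC and digits. Counts were tested with edgeR 4.0.16 (glmQLFit, glmQLFTest; R 4.3.3) with the label group as sole term, TMM scaling and filterByExpr, after tests on simulated data, and all 614 loci passed that filter. Benjamini-Hochberg adjustment ran over all tested genes. CPM used TMM-scaled library sizes, except for marker genes and the limits for rows at 0, which used raw totals. Limma 3.58.1 (voom) and DESeq2 1.42.0 were alternatives, beside other scalings, filters, count minimums, a replicate block and leaving out each library. Named were HMGB2, the 8 called loci that changed most each way (and 5 each way among those without a shared exon), the 8 most abundant, extremes of structure, 4 with a close opposite start, those printed, head-to-head and opposite-body pairs in which both were called (picked after their values were seen), and loci at the count minimum. The loci and lists were chosen with earlier results of these data known.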

Additional observations from a re-analysis of the deposited data

How the results depend on the processing

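With 17 loci higher and 70 lower as reported, DESeq2 gave 7 and 12, and a minimum of 50 counts left 34 lower. Leaving out 1 library gave 6 to 20 higher and 25 to 82 lower. Upper-quartile and total-count scaling, no filter, a mean of at least 1 CPM, limma-voom, minimums of 5 counts or a sum of 40, thinned libraries, loci without a shared exon and loci with 1 standard placement stayed within 1.5 times both counts, and the last 3 of these were chosen after seeing the data. The test against a 1.5-fold change called 3 loci in place of 87. Sharing of exons with a named gene covered 199 loci from 1 base on, 98 at 10% and 10 at 50% of exonic bases. The median log2 fold change stayed negative under all of these, from -0.216 to -0.089 without 1 library. With the replicate block 17 loci were higher and 65 lower, and LOC105378419 was not called (adjusted p = 0.0636). The deviations of same-numbered libraries had a correlation of -0.014. The labels do not say whether the numbers pair the libraries, and a value near 0 cannot settle it. Of 34 called loci named, 1 of them below the count minimum, 11 stayed past the threshold in all of the 12 settings tried for single loci that gave them an adjusted p. The test against a 1.5-fold change and the thinned libraries were not among those 12. HMGB2 stayed higher in all. Values of 5 loci changed sign, none of them past the threshold in the fit where it did. LOC102724250 went from 0.01 to -0.04 with upper-quartile scaling and -0.03 with total counts. Leaving out 1 library gave -0.07 to 0.10 for LOC102724250, -0.39 to 0.09 for LOC105376794 (positive without scramble replicate 2), -0.01 to 0.19 for LOC408186 and -0.56 to 0.89 for LOC100420981 (both negative without HMGB2 siRNA replicate 1), and -0.50 to 0.11 for LOC100419798 (positive without scramble replicate 1). The cause was not tested. The counts are low for many of these loci, 193 of which were under 1 CPM.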
